A study of Mus musculus with 2 samples.

Results

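The genes that display peptides to T cells were compared between the liver of an irradiated mouse sample and that of a control. They were chosen by symbol, as every gene whose symbol starts with H2-, the prefix of the mouse major histocompatibility complex (MHC), together with B2m, Tap1, Tap2, Tapbp, Tapbpl, Cd74, Ciita, Nlrc5, Erap1, Cd1d1 and Mr1. A gene needed a probe set annotated with its symbol alone. This gave 44 genes of 22180 on the array, 34 of them H2- genes and 10 others. Of the listed names, Cd74 had no probe set of its own. Of the 44, 27 reached the expression floor, a log2 value of 6.06 on at least 1 array, which is the median of all deposited values and not a measured background.

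Both samples were liver RNA of male C57BL/6 mice aged 9 weeks. The irradiated group had received 6 Gy of gamma rays to the whole body in 1 exposure, at 0.81 Gy per minute, when 4 weeks old, and was sampled 5 weeks afterwards. The control group was not irradiated. Each group held 1 array, and the labels do not say whether an RNA came from 1 animal or a pool, nor whether the control was anesthetized as the irradiated mice were. No difference below therefore has a replicate check and none was tested.

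MHC class I molecules present peptides made inside the cell to CD8 T cells. They need the light chain beta-2 microglobulin, the TAP transporter that brings peptides into the endoplasmic reticulum, and tapasin, which holds the empty molecule at that transporter. Class II molecules present peptides from ingested protein to CD4 T cells and are made mainly by B cells, dendritic cells and macrophages, which in the liver include Kupffer cells. Hepatocytes carry class I but normally little class II, and the liver also makes non-classical class I molecules, among them the secreted H2-Q10. C57BL/6 mice have the H2-b haplotype, which makes no functional H2-E alpha chain.

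Values are log2 RMA values of the authors, and differences are irradiated minus control on that scale. At 1.5-fold, a log2 difference of 0.585, 0 of the 27 members were higher and 0 were lower. Of all 13689 genes at or above the floor, 1.14% passed this size upwards and 0.65% downwards. At a smaller size, a log2 difference of 0.322, 1 member was higher, H2-M3, and 1 was lower, H2-T24. That is 3.7% of the 27 in each direction, near the 4.65% and 3.75% of all expressed genes that were as much higher or lower. The median difference of the 27 was 0.02, beside -0.0021 for all expressed genes, and 17 of them were above 0, as were 6646 of the 13689. The 27 differences lay between -0.40 and 0.42. The central 95% of all expressed genes lay between -0.372 and 0.420, and 2 of the 27 were outside it. These were H2-T24 at -0.398 and H2-M3, just outside at 0.421.

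**Figure D1:**
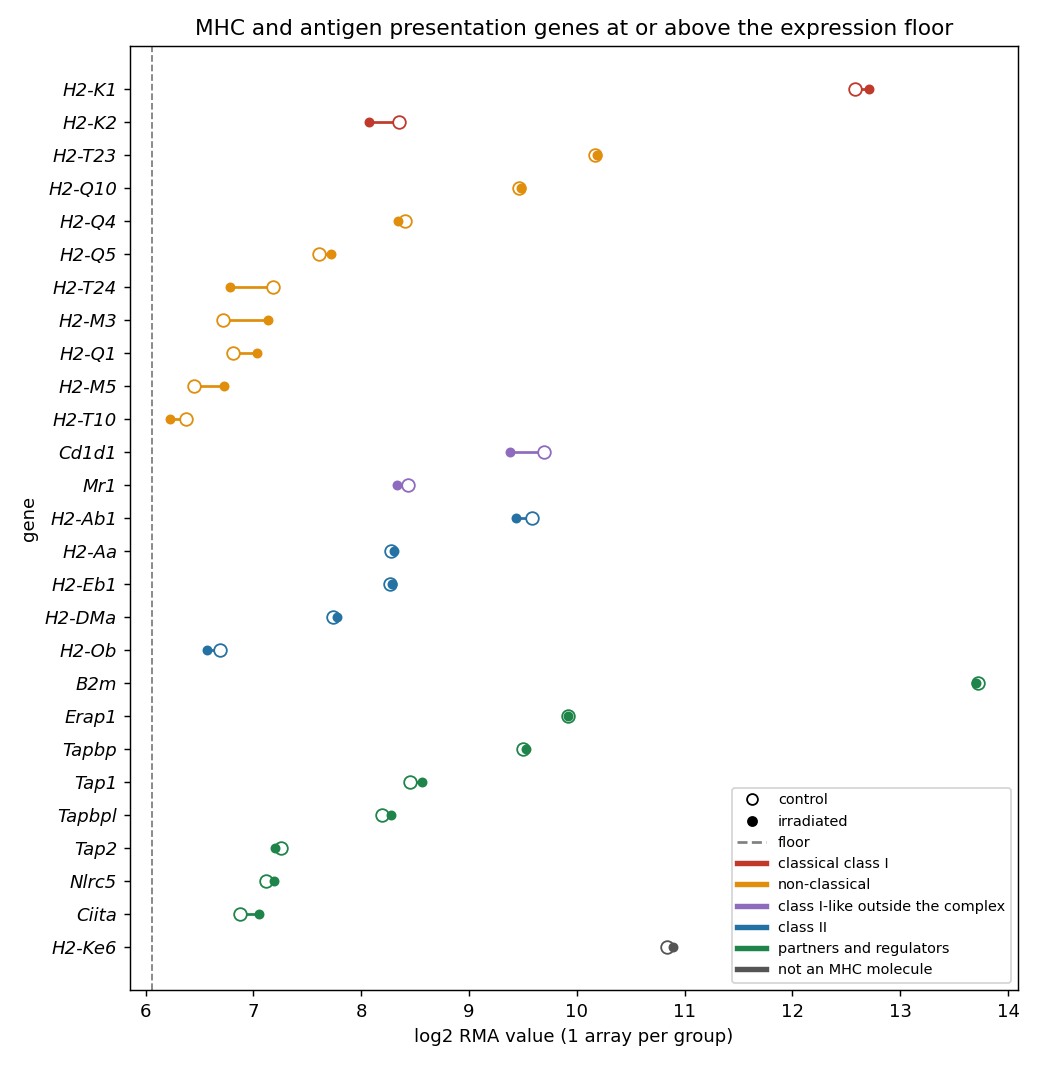
Log2 RMA value of each of the 27 members at or above the floor in the control (open circle) and after irradiation (filled circle), coloured by class, with the floor of 6.06 as a dashed line. The widest gaps belong to H2-M3 (6.72 and 7.14) and H2-T24 (7.18 and 6.78), and probe levels of different genes cannot be set against each other.

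The classical class I genes on the array with a probe set of their own were H2-K1 and H2-K2. H2-K1, which encodes the K heavy chain, gave 12.58 in the control and 12.71 after irradiation (0.13). H2-K2, a transcribed pseudogene beside it in RefSeq, read 8.35 and 8.07, a difference of -0.28, or 1.22-fold lower. These neighbours differed in opposite directions, with a median of -0.074, and near-identical class I sequences can share probe signal. H2-D1, the other classical heavy chain gene of this strain, was covered by a probe set annotated with both H2-Q2 and H2-D1. That probe set read 6.56 and 6.67, a difference of 0.11, which cannot be given to either gene.

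The genes that class I molecules need for assembly, with the regulators, differed by -0.050 to 0.17. B2m, the light chain, read 13.72 in the control and 13.70 after irradiation, a difference of -0.016, close to the highest values of the arrays (13.87 and 13.91), and whether a larger change would show there was not tested. Tap1 and Tap2, which together form the peptide transporter, differed by 0.11 (8.45 and 8.57) and by -0.050 (7.25 and 7.20). Tapbp, which encodes tapasin, differed by 0.022 (9.50 and 9.52), and its second probe set read 6.86 and 6.77. Tapbpl, a tapasin relative that edits peptides, differed by 0.082 (8.19 and 8.27). Erap1, the aminopeptidase that trims peptides in the endoplasmic reticulum, differed by 0.0045 (9.91 and 9.92). Nlrc5, the transactivator of class I genes, read 7.12 and 7.19, and Ciita, its counterpart for class II genes, read 6.88 and 7.05, a difference of 0.17. Over these 8 partners and regulators the median was 0.046, and Ciita, 1.13-fold higher, was the farthest from 0. A probe set annotated with Cd74, the class II invariant chain, and the microRNA gene Mir5107 read 10.45 and 10.40, a difference of -0.056.

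The promoters of some members are shown because class I, class II and B2m genes are known to share an upstream module. In it, a site of the cyclic AMP response element (CRE) kind is followed by a Y box. The members shown differed by -0.016 (B2m) to 0.42 (H2-M3), so those that read lowest, such as H2-T24 and Cd1d1, are not among them. The RefSeq promoter table (GRCm38.p6) held 30 of the 44 members. The stretches printed are the 150 bases before the annotated start, read 5' to 3' on the gene's strand, and the first of 2 starts was used for H2-K1. Capitals mark matches, on either strand, to the CRE core TGACG, the Y box ATTGG, the interferon response element GAAANNGAA, the kappa B site GGGATTCCC of class I genes, and CTAGCAAC, letters of the class II X box. The first 3 are H2-K1 (chr17:34000348-34000497, minus strand), B2m (chr2:122147537-122147686, plus strand) and H2-M3 (chr17:37270084-37270233, plus strand).
H2-K1: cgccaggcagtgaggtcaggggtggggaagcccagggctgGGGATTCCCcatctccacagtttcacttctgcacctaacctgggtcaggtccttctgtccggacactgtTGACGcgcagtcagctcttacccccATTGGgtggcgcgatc
B2m: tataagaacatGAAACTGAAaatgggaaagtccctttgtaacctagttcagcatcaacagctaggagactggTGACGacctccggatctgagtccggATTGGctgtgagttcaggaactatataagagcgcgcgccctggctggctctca
H2-M3: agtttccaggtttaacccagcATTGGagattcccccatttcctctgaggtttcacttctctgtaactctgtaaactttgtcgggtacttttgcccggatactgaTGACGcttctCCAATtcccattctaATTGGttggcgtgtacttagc

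In each of these 3 stretches TGACG was followed by ATTGG after 18 to 21 bases. In the 250 bases before the start, that pair was present in 4 of the 30 members, the other being H2-Aa, and in 0.219% of all 32851 promoter windows. TGACG alone was in 11 of the 30 and in 17.8% of all windows, and ATTGG alone was in 25 and in 33.9%. The kappa B letters were found in H2-K1 alone of the 30, and in 0.301% of all windows. The 4 genes with the pair differed by -0.016 (B2m), 0.028 (H2-Aa), 0.13 (H2-K1) and 0.42 (H2-M3). The next 2 are H2-T23 (chr17:36032702-36032851, minus strand) and H2-Q10 (chr17:35469939-35470088, plus strand).
H2-T23: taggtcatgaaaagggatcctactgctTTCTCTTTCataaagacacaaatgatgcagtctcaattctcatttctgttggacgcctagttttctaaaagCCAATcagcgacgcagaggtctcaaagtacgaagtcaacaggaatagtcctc
H2-Q10: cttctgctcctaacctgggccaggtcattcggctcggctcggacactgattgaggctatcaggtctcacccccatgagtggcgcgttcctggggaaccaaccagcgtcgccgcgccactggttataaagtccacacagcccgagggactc

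GAAANNGAA was present in 3 of the 30 members, B2m, Erap1 and H2-T23, and in 7.13% of all windows. Other spellings of an interferon response element were not searched. The letters tttcacttc in the H2-K1 and H2-M3 stretches do not match this spelling and were left unmarked. The H2-Q10 stretch held none of the letters searched, although 71 of 91 columns of its local alignment with the H2-K1 stretch were identical (78.0%). Aligned in the same way, the H2-K1 stretch matched that of H2-M3 in 87 of 134 columns (64.93%). With that of B2m it matched in 53 of 89 columns (59.55%). Unrelated stretches were not aligned, so these shares have no baseline. A match is a description of letters and not a measured site. The last 3 are the class II genes H2-Aa (chr17:34287824-34287973, minus strand) and H2-Eb1 (chr17:34305717-34305866, plus strand), and Tap1 (chr17:34187406-34187555, plus strand).
H2-Aa: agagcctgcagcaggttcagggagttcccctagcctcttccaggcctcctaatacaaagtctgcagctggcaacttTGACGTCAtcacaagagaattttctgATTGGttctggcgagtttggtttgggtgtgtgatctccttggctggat
H2-Eb1: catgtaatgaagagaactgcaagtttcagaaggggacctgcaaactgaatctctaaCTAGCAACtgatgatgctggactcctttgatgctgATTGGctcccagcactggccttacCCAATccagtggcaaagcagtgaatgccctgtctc
Tap1: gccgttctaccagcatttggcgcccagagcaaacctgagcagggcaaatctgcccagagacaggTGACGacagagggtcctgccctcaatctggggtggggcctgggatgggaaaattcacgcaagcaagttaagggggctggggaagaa

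In H2-Aa the CRE core was found on both strands, as an overlapping pair. CTAGCAAC was present in 4 of the 30, which were H2-Eb1, H2-Eb2, H2-Ob and Mr1, and in 1.13% of all windows. The Tap1 window overlaps that of Psmb9, an immunoproteasome subunit gene on the opposite strand, by 275 bases. Tap1 differed by 0.11 and Psmb9 by -0.25 (7.79 and 7.53), so this divergent pair lay on either side of 0.

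Non-classical class I genes held both members that passed 0.322. H2-M3, which presents formylated bacterial and mitochondrial peptides, read 6.72 in the control and 7.14 after irradiation, a difference of 0.42 and 1.34-fold higher. H2-T24, a gene of the T region, read 7.18 and 6.78, a difference of -0.40 and 1.32-fold lower. Among expressed genes, 4.17% lay at least as far from 0 as H2-M3 and 4.82% as far as H2-T24. Set against the 3966 genes with a mean value between the floor and 7, whose central 95% ran from -0.37 to 0.45, H2-M3 lay inside and H2-T24 just outside. H2-M5 read 6.45 and 6.72 (0.28), and H2-Q1 read 6.81 and 7.03 (0.22). H2-T10, a transcribed pseudogene, read 6.37 and 6.23, a difference of -0.14.

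H2-T23 encodes Qa-1, which is read by the inhibitory receptor NKG2A, and it gave 10.17 and 10.18, a difference of 0.011. H2-Q10, the secreted liver molecule, gave 9.47 and 9.48, also a difference of 0.011, on the probe set with the higher mean. Its other probe set gave 9.16 and 8.81, a difference of -0.35, so the probe sets of H2-Q10 disagree. H2-Q4 gave 8.40 and 8.34, a difference of -0.062, and its other probe set was below the floor with the identical value 5.92 on both arrays. The pseudogene H2-Q5 gave 7.61 and 7.72 (0.11), while its second probe set, whose mean was lower only in the fourth decimal, gave 7.50 and 7.82, a difference of 0.320. Across 419 genes with 2 probe sets at or above the floor, the differences of those 2 probe sets lay a median of 0.16 apart, and 0.52 apart at the 95th percentile. H2-M3 and H2-T24 were each measured by 1 probe set, so no such gap can be given for their differences.

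Over the 9 expressed non-classical genes the median difference was 0.011, with 6 above 0. That median was 0.105 when probe sets of several symbols were taken by their first symbol. Several Q and T genes are so alike that the annotation gives their probe sets several symbols. A probe set for H2-Q7, H2-Q8 and H2-Q9, genes of the Qa-2 molecule, read 12.02 and 12.17 (0.15), and another with the same 3 symbols read 8.73 on both arrays, to 2 decimals. A probe set for H2-Q6 and H2-Q8 read 9.60 and 9.97, a difference of 0.37, or 1.29-fold higher. One for H2-T9 and H2-T22, the latter a ligand of some gamma-delta T cells, read 10.21 and 10.24.

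Outside the complex, both class I-like genes read lower after irradiation. Cd1d1, which presents lipids to natural killer T cells, read 9.70 in the control and 9.38 after irradiation, a difference of -0.316 and 1.24-fold lower, just short of 0.322. It passed that size with both arrays centred on their medians (-0.33), and H2-T24 did not with 32 added on the linear scale (-0.318), so which members are lower at 0.322 depends on the processing. Among expressed genes 8.80% lay at least as far from 0. Mr1, which presents vitamin metabolites to mucosal-associated invariant T cells, read 8.44 and 8.33, a difference of -0.11. Of the 6 other class I-like genes fixed as a list that had a probe set, 4 were expressed. Of these 4, 0 lay as far as 0.322 from 0, where 4.65% of all expressed genes were as much higher and 3.75% lower. Fcgrt, the neonatal Fc receptor that recycles IgG and albumin, read 11.46 and 11.50. Hfe, the iron regulator mutated in hemochromatosis, read 9.09 and 9.04.

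**Figure D2:**
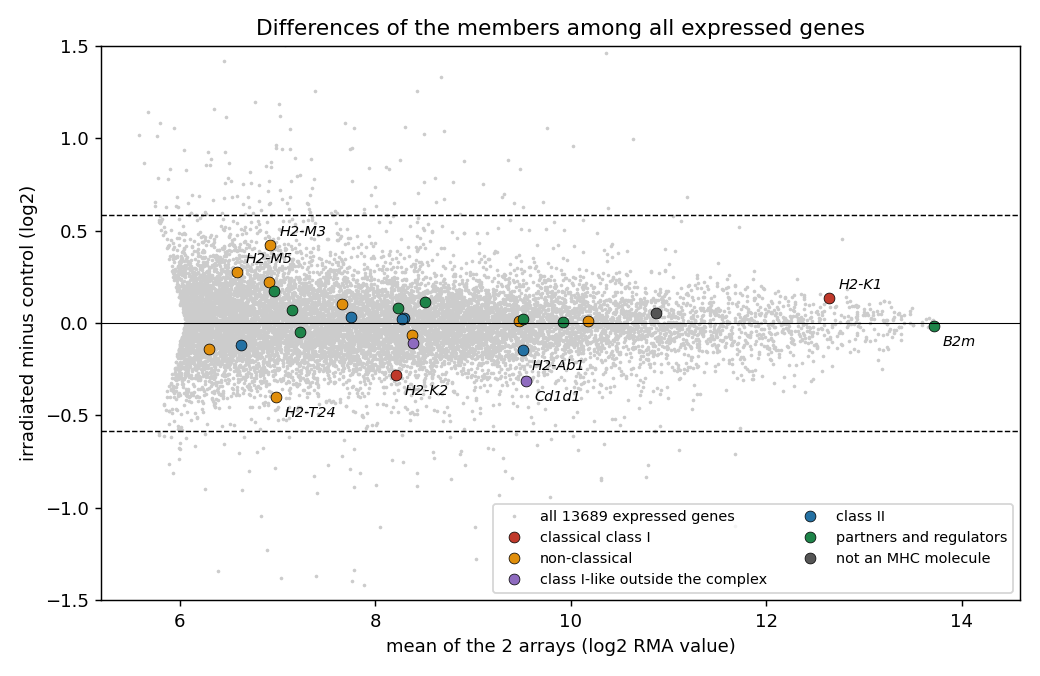
Difference between the arrays (irradiated minus control, log2) against the mean of the 2 arrays for all 13689 expressed genes (grey) and the 27 members (coloured by class); dashed lines mark 1.5-fold, and 33 genes beyond 1.5 log2 units on the vertical axis are not drawn. All 27 members lie between the dashed lines, with H2-M3 highest at 0.42 and H2-T24 lowest at -0.40.

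Among class II genes 5 of 11 were expressed, and their median difference was 0.020. H2-Aa and H2-Ab1 encode the chains of the I-A molecule. H2-Aa read 8.28 and 8.31, a difference of 0.028, while H2-Ab1 read 9.58 and 9.44, a difference of -0.14. H2-Eb1, the E beta chain, read 8.26 and 8.28. H2-DMa, a chain of the editor that loads class II peptides, read 7.74 and 7.77, and H2-Ob, a chain of the DM inhibitor found mainly in B cells, read 6.69 and 6.57, a difference of -0.12. The 3 genes H2-Aa, H2-Eb1 and H2-DMa therefore lay within 0.031 of 0, and H2-Ab1 and H2-Ob lay lower. All 6 class II genes below the floor were also below 0, at -0.21 to -0.018. They were H2-DMb1, H2-DMb2, H2-Oa, H2-Eb2, H2-Ea and H2-Pb.

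In all, 17 members were below the floor on both arrays, 11 non-classical and 6 class II, with values from 3.65 to 6.04. The 3 with the highest means were H2-DMb2 (6.04 and 6.02), H2-Oa (5.99 and 5.90) and H2-Bl (5.88 and 5.70). As measured, H2-M9 (4.44 and 4.92) and H2-M2 (5.16 and 5.59) were higher after irradiation by over 0.322, but both differences are 0 once such values are raised to the floor. The remaining member, H2-Ke6, encodes a hydroxysteroid dehydrogenase of the region and no MHC molecule, and read 10.84 and 10.90.

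RefSeq placed 36 of the 43 members it matched on chromosome 17, 20 of them expressed.

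**Figure D3:**
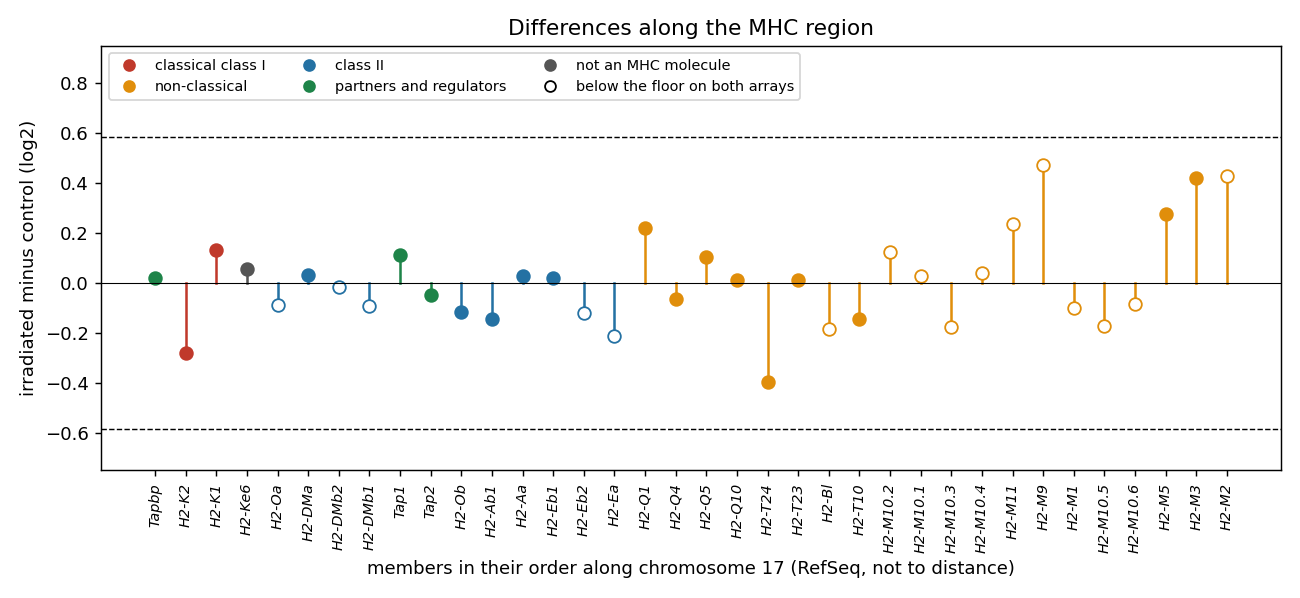
Difference (irradiated minus control, log2) of the 36 members on chromosome 17, in their RefSeq order and not to distance; filled points are at or above the floor, open points are below it on both arrays, and dashed lines mark 1.5-fold. Class II genes lie near or below 0, and the points farthest from 0 among expressed genes are H2-M3 and H2-T24.

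The rest of the pathway was read through 9 gene lists, of which 91 genes had a probe set and 76 were expressed. Of these 76, 0 were 1.5-fold higher and 0 were 1.5-fold lower, beside 1.14% and 0.65% of all expressed genes. The median of the 76 was 0.031. By 0.322 or more 1 was higher and 1 lower, beside 4.65% and 3.75% of all expressed genes, and both were interferon targets. Ifit3 differed by 0.39 (7.03 and 7.42) and the GTPase gene Gbp7 by -0.35 (8.25 and 7.91). The 12 expressed interferon targets had a median of -0.089, with 8 below 0. Among them Cxcl9, a chemokine induced by interferon gamma that draws T cells, differed by -0.31 (10.01 and 9.69) and Usp18, which damps interferon signalling, by 0.21.

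Peptide supply lay around 0, with a median of 0.0084 over 10 genes. Psmb8, the immunoproteasome subunit encoded next to Tap1 and Psmb9, read 8.08 and 8.29 (0.21), and Psmb10 read 9.64 and 9.69 (0.054). All 7 chaperone and folding genes were above 0, with a median of 0.14, where 6646 of the 13689 expressed genes were above 0. Uggt1, the glycoprotein folding sensor, read 9.94 and 10.23 (0.29), and Hspa5, the chief chaperone of the endoplasmic reticulum, 10.03 and 10.23 (0.20). Of the class I loading complex itself, Pdia3 differed by 0.14, Canx by 0.095 and Calr by 0.092. Class II processing genes were above 0 in 9 of 10, with a median of 0.075. Ifi30, a thiol reductase of the lysosome, read 9.03 and 9.28 (0.25), the protease gene Lgmn 10.31 and 10.56 (0.25), Marchf1, whose ligase removes class II molecules from the surface, 6.29 and 6.51 (0.23), and Ctss, which trims the invariant chain, 8.69 and 8.79 (0.097).

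Among 13 promoter factors the median was 0.010. Nfyb, a subunit of the factor that binds the Y box, differed by -0.30 (8.35 and 8.05), Irf1 by -0.21 (7.94 and 7.74) and Irf8 by 0.21 (7.85 and 8.06). Rfx5, the X box factor, read 7.41 and 7.45. Interferon signalling genes had a median of 0.029 over 8, with the inhibitor gene Socs1 at 0.22, and Ifng and Ifnb1 were below the floor on both arrays. Receptors of MHC molecules had a median of -0.17 over 6, with Lag3, a class II receptor of T cells, at -0.29 (6.11 and 5.82), the inhibitory receptor gene Lilrb4a at 0.26 and Cd8b1 at -0.20. With values below the floor raised to it that median was -0.028. With the floor at the 75th percentile Lilrb4a alone remained, at 0.26, which is no median of the list. The direction of the list is therefore not settled. Cd4 read 6.06 and 5.92, and Cd8a was below the floor. Costimulatory genes had a median of 0.060 over 6, with Cd40 at 0.25 and Cd83 at 0.19.

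Markers of the cells that could carry these genes were read beside them, and fewer cells of a type cannot be told apart from less RNA per cell in bulk liver. Hepatocyte markers were present, with Alb at 13.68 and 13.70, and had a median of 0.0021 over 9 genes. B cell markers were above 0 in 0 of 5 expressed genes, with a median of -0.16. Of all 13689 expressed genes 6646 were above 0. Cd79a, a chain of the B cell receptor, read 6.78 and 6.48 (-0.30), Fcrla read 6.14 and 5.85 (-0.29), and Cd79b had the identical value 7.27 on both arrays, as had 1.14% of expressed genes. The linear values of the 9 B cell markers with a probe set summed to 671 in the control and 616 after irradiation, 4 of them below the floor in the control and 5 after irradiation. Sums of this kind add different probes, some below the floor, and are given as a description only. Ms4a1 and Cr2, both B cell markers, were below the floor on both arrays.

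Kupffer cell and macrophage markers were above 0 in 11 of 13, with a median of 0.14, beside 6646 of the 13689 expressed genes. Cd14, the lipopolysaccharide receptor, read 5.76 and 6.41, 1.57-fold higher but below the floor in the control, and Vsig4, a complement receptor of Kupffer cells, read 10.77 and 11.17 (0.40). C1qb differed by 0.38, while C1qa differed by 0.051 and C1qc by -0.081. Cd68 differed by 0.36, while Clec4f, a Kupffer cell marker, differed by 0.11 and Adgre1 by -0.047. The linear sum of the 13 was 7936 in the control and 9346 after irradiation. Dendritic cell markers had a median of 0.048 over 6 and linear sums of 1004 and 1037, with 3 above 0 and 3 below, among them Ccr7 at 0.47, Itgax at 0.10, Zbtb46 at -0.10 and Batf3 at -0.081. T and NK cell markers were expressed in 3 of 10, with Cd3g at 0.23, Cd3e at 0.16 and Nkg7 at -0.076, and sums of 665 and 696 to which 7 markers below the floor contribute. Neutrophil markers were expressed in 1 of 7, Cxcr2 at -0.18, with sums of 338 and 318 to which 6 markers below the floor contribute. Endothelial markers had a median of -0.087 over 10, with 4 above 0 and 6 below, and sums of 11957 and 11981. The farthest from 0 of the 10 were Lyve1 at 0.26 and Tek at -0.17. Of the bile duct markers 4 of 6 were at least 1.5-fold higher, beside 1.14% of all expressed genes. They were Muc1 (a difference of 2.62), Cd24a (7.23 and 9.73), Krt19 (a difference of 1.20) and Epcam (0.75), while Krt7 differed by 0.29 and Sox9 by 0.19, and the sums were 669 and 1952. The part of these cell types in the values of the members was not tested.

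**Figure D4:**
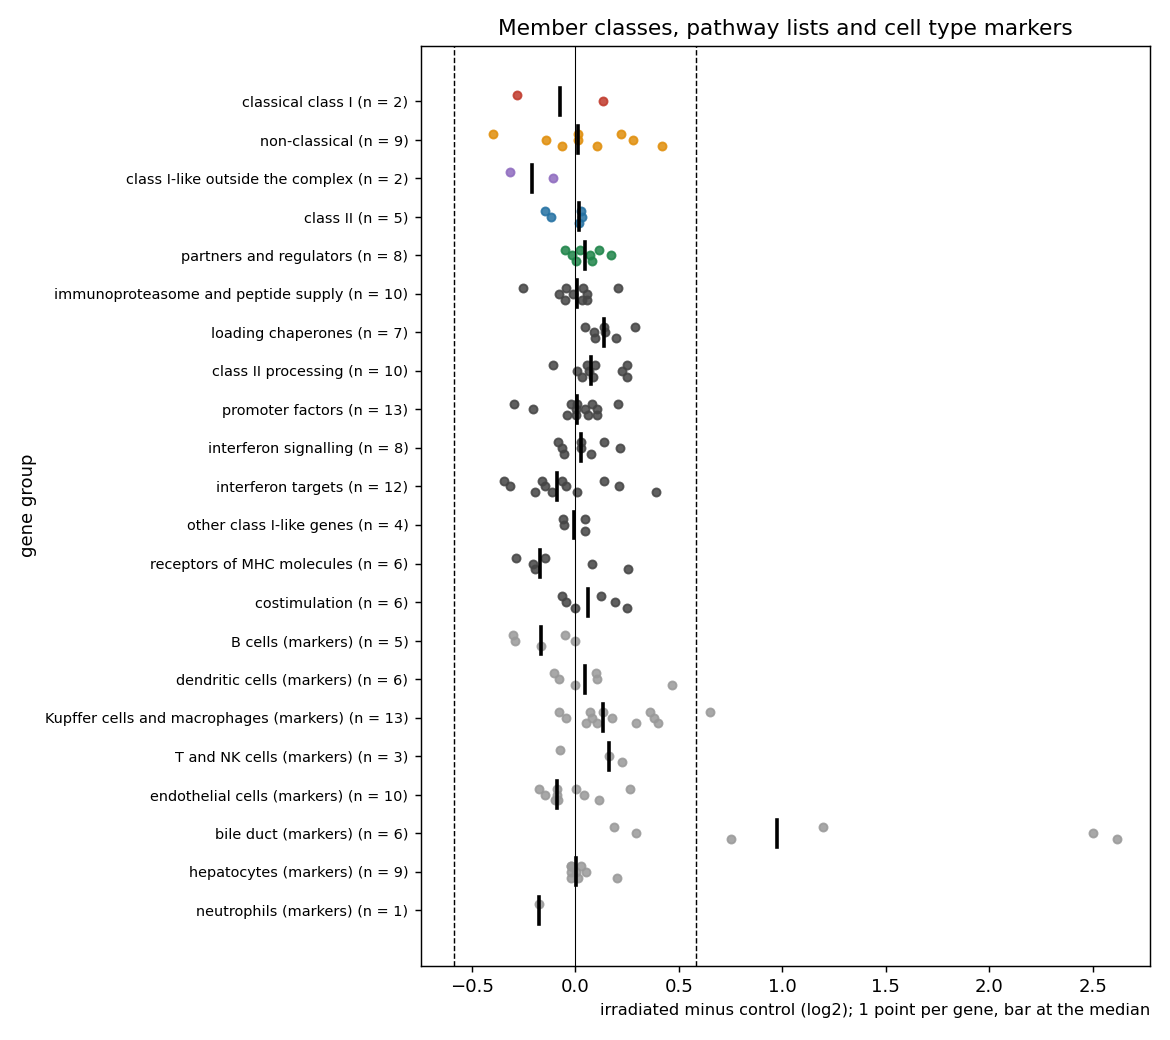
Difference (irradiated minus control, log2) of each expressed gene in 5 member classes (coloured), 9 pathway lists (dark grey) and 8 lists of cell type markers (light grey), with n genes each, a black bar at the median and dashed lines at 1.5-fold. No gene of the member classes or pathway lists passes a dashed line, whereas 4 bile duct markers and Cd14 do.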

How the data were processed

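Liver RNA was hybridised to 2 Affymetrix whole-transcript arrays, from 300 ng of total RNA each, per the labels' protocols. The deposited table held 1 log2 value for each of 41345 probe sets and array. RMA, run by the authors in Affymetrix Expression Console 1.3.1, gave these log2 values, per the submitters' processing notes. That the scale is log2 was read from the range of 1.46 to 13.9. RMA brings arrays to 1 distribution (medians 6.05 and 6.07), so a change in total RNA cannot be seen. The array's build was not used here.

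Names came from GEO's platform annotation, which can be old: 23521 probe sets had 1 symbol, 1814 several and 16010 none. Where a gene had several probe sets, the one with the highest mean was kept. With 1 array per group no test was made, and genes were counted by fold. The number of arrays limits the precision. Every member at or above the floor was named. Of the other lists, some of the genes with the largest differences, up to 4 each, and some fixed by name were given. Members, lists and rules were chosen with earlier results of these data known. Alternatives changed the floor, scaling (loess span 0.3), probe set choice, low values (32 added on the linear scale) and fold. The counting was tested on simulated arrays. Python 3.11.15, numpy 2.4.6, pandas 2.3.3 and statsmodels 0.14.6 were used.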

Additional observations from a re-analysis of the deposited data

Results flagged for a closer look

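Probe sets that carry a member's symbol but did not stand for a gene in the comparison gave 2 differences of at least 0.322. The probe set 17337122, annotated with both H2-Q6 and H2-Q8, was higher on the irradiated array by 0.37. The probe set 17337142, the second one for H2-Q10, differed by -0.35, while the one with the higher mean differed by 0.011. Both are single readings without a replicate.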

How the results depend on the processing

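No paired analysis was possible because there was 1 array for each treatment. With a log2 difference of 0.322 as the size in place of 1.5-fold, 1 member was higher and 1 was lower, and 1 gene of the pathway lists was higher and 1 lower, where 1.5-fold gave 0 in each case. With 2-fold, no filter, a floor at the 75th percentile, other scalings, other probe set choices, 32 added or values set to the floor, the member counts remained 0 in both directions. With no filter the class II median was -0.089 rather than 0.020, since 6 genes below the floor entered it. With probe sets of several symbols taken by their first symbol, the non-classical median was 0.105 rather than 0.011. Some alternatives could not move the value of an expressed member. These were no filter, the floor at the 75th percentile, and values set to the floor, which every expressed member exceeded on both arrays. Averaging probe sets could move only the 4 members with several. Of 234 values of single members under the alternatives, these included, 230 moved by less than 0.1. The others were H2-Q5 under quantile normalization (0.32), with 32 added (0.28) and with probe sets averaged (0.21), and H2-Q10 with probe sets averaged (-0.17). Under the first 2 of these the second H2-Q5 probe set became the brighter one. H2-M3 ranged from 0.33 to 0.42, H2-T24 from -0.42 to -0.318 and Cd1d1 from -0.33 to -0.303. Cd1d1 passed 0.322 under median centring alone, and H2-T24 fell short of it with 32 added. The median of the receptors of MHC molecules ran from -0.19 to 0.26. Its highest value came from the stricter floor, under which Lilrb4a alone remained. The 14 members at least 0.1 from 0 changed sign under none of the alternatives in which they were kept. The floor at the 75th percentile kept 18 of the 27 expressed members, and H2-M3 and H2-T24 were not among these. The depth of evidence is 1 array per group, so the spread between animals is unknown, and a difference smaller than that spread cannot be recognised here.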

Other observations

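The last 3 members in the order along chromosome 17 all read higher on the irradiated array, a stretch picked after its values were seen. H2-M5 differed by 0.28, H2-M3 by 0.42 and H2-M2, which was below the floor on both arrays, by 0.43. The preceding pair, H2-M10.5 and H2-M10.6, also below the floor, read lower by contrast, at -0.17 and -0.084.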
